A study of Homo sapiens with 6 samples.

Results

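The genes described here are 9 chaperones and folding enzymes of the endoplasmic reticulum (ER), namely HSPA5, HSP90B1, CALR, CANX, PDIA3, PDIA4, PDIA6, DNAJB9 and SDF2L1, and the transcription factor XBP1. They were taken by symbol from the authors' table of 58735 genes as targets of the unfolded protein response outside its ATF4 arm, and all 10 were found. The selection went by function and symbol, with no threshold on measured values, although earlier results of these data were known. The samples were HEK293 cells, a human embryonic kidney line. One group stably expressed Tensin-2 Y483E, in which the tyrosine is replaced by glutamate, a residue often used to resemble a phosphorylated one. The other stably expressed Tensin-2 Y483F, in which phenylalanine, which cannot be phosphorylated, takes that place. Each group had 3 libraries, and the groups are called lines below. Parental cells, wild-type tensin 2 and cells under ER stress are not analysed here, so every value below comes from cells that carry a mutant tensin 2.

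Proteins that enter the ER are folded with the help of HSPA5 (BiP), an Hsp70-type chaperone that also holds the stress sensors inactive, and of HSP90B1 (GRP94), its Hsp90-type partner. Glycoproteins pass through the lectin chaperones calnexin (CANX) and calreticulin (CALR), and disulfide bonds are formed by protein disulfide isomerases. When unfolded proteins build up, the sensor IRE1 cuts a short piece out of XBP1 mRNA, which shifts its reading frame and yields the active factor. ATF6 is released by cleavage in the Golgi, and the sensor PERK slows translation and raises ATF4. XBP1 and ATF6 act on chaperone promoters through the ER stress response element (ERSE), in which a CCAAT box bound by the factor NF-Y is followed at a fixed distance by CCACG.

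Most promoters of these genes shared the ERSE. The RefSeq promoter table on GRCh38.p14 held 15 windows of 300 bases, 250 before and 50 after a transcript start, for 9 of the 10 genes, PDIA3 being the gene with no entry. CCAAT followed by any 9 bases and CCACG was searched on both strands. This pattern stood in 27 of the 35116 windows of the whole table (0.0769%), which belong to 25 of 27305 genes (0.0916%). Of these 25 genes, 6 are described here: HSPA5, HSP90B1, CALR, CANX, PDIA6 and XBP1. The windows below show where the element sits in the whole promoter of the chaperone HSPA5, at chr9:125241294-125241593 on the minus strand, and for XBP1, at chr22:28800520-28800819 on the minus strand. Capitals mark the whole element.
HSPA5 promoter: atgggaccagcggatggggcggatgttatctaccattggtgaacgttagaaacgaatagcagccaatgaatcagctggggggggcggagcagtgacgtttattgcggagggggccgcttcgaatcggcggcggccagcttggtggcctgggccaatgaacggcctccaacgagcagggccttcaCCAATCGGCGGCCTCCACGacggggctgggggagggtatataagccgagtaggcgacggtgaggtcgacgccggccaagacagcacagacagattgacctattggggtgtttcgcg
XBP1 promoter: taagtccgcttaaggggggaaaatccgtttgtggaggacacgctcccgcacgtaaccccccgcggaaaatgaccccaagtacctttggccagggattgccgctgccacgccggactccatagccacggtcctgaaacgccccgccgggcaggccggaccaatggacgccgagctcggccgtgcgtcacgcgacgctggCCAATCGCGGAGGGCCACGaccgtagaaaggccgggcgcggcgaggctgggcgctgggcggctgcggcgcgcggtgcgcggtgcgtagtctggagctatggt

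The matched elements are set side by side below so that the fixed ends and the free middle can be compared. Capitals mark the CCAAT and CCACG ends, and each is written on the strand that reads CCAAT first.
HSPA5 element: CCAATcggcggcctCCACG
HSP90B1 distal element: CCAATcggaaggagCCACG
HSP90B1 proximal element: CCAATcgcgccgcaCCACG
CALR element: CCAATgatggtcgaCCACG
CANX element: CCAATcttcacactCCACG
PDIA6 element: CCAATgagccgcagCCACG
XBP1 element: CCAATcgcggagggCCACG
Counted from the transcript start, the first base of the element was at -66 in HSPA5 (chr9:125241391-125241409), at -52 in XBP1 (chr22:28800603-28800621) and at -86 in PDIA6 (chr2:10812853-10812871). HSP90B1 held 2 elements, at chr12:103930216-103930234 and, on the other strand, at chr12:103930321-103930339. Its window was the 1 window of the table with 2 or more exact matches. Only exact letters were searched, so near matches in HSPA5 or any other window were neither counted nor marked. In CALR the element was on the strand opposite to the gene, at chr19:12938384-12938402. CANX carried 1 element, at chr5:179698778-179698796, that fell within 3 overlapping windows.

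SDF2L1 had the related element ERSE-II, searched as ATTGG, any base and CCACG on both strands and found in 19 of all windows (0.0541%), at chr22:21642114-21642124 on the opposite strand.
SDF2L1 ERSE-II: ATTGGtCCACG
PDIA4 and DNAJB9 held neither set of letters. The UPRE, searched as TGACGTGG, stood in 0.729% of all windows, and CARE, the ATF4-type composite element searched as TGATGNAA, in 3.62%. Neither was found in a window of the 9 genes. These matches are a description of letters in short windows and do not show which factor was bound.

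One further sequence carries the biology of XBP1, the stretch that IRE1 removes. It was read from the GENCODE 29 transcripts on GRCh38, where the spliced transcript model lacks 26 bases that the unspliced model has, in coding exon 4 of 5 at chr22:28796124-28796149 on the minus strand. Capitals mark the 26 bases. The bases at both ends repeat, so the alignment allows 7 equivalent placements. The one printed, with the position given above, was chosen because GCAG precedes both ends. It does not fix the bases between which IRE1 cuts, which may lie at another of these placements.
XBP1 splice site: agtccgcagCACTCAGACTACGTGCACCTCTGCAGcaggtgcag
Without these bases the reading frame runs to a protein of 376 residues. The deposited values are per gene, so unspliced and spliced XBP1 mRNA were counted together and the activity of IRE1 was not measured.

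The libraries held between 17204498 and 23284592 reads in genes. The values are the authors' FPKM, fragments scaled by gene length and library size, a level per length that can be compared between genes. The submitters numbered the libraries 1, 4 and 5 in both lines, here replicates 1, 2 and 3, without saying what the numbers mean. The labels call the replicates biological and do not mention separate cultures or clones. The p-values therefore measure the spread between these samples, and if each form was carried by 1 clone, clone and mutation cannot be told apart. TNS2 ranged from 0.753 to 1.05 FPKM in Y483E and from 1.07 to 1.16 FPKM in Y483F, a sum of the cells' own gene and any reads of the construct. Among marker genes of HEK293 cells, NEFL, IRS4 and PEG10 had a mean of at least 1 FPKM and NEFM, NEFH, PAX2 and LHX1 did not. IRS4 ranged from 152 to 154 FPKM in Y483E and from 157 to 173 FPKM in Y483F. Markers of blood, fibroblasts, endothelium, hepatocytes and plasma cells summed to less than 1 FPKM per cell type in every library, and PTPRC, CD3E, HBB and COL1A2 were listed at 0 in all 6. In bulk RNA, fewer cells with a transcript and less transcript per cell cannot be told apart.

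The folding machinery of the ER was abundant in both lines, and the ratio of the Y483E to the Y483F mean was between 0.933 (PDIA3) and 1.10 (DNAJB9) for the 9 chaperones. None of these differed past the threshold over all 6 libraries. XBP1 was the exception in size: its mean was 1.20 times as high in Y483E as in Y483F, a difference carried by the Y483E libraries numbered 4 and 5. Over all 6 libraries it failed the correction over all genes in limma, edgeR and DESeq2, and passed it with array weights in limma and in edgeR with no filter. With the libraries numbered 4 and 5 alone it passed in limma and edgeR. CALR passed in libraries 4 and 5 too, in the lower direction, in edgeR but not in limma. DNAJB9 was slightly higher and HSP90B1 slightly lower in every Y483E library than in every Y483F library. Such a separation was found for 9.72% of all genes tested in the higher and 7.37% in the lower direction.

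All 10 were among the 12833 genes tested, those averaging 1 FPKM or more. In limma on log2(FPKM + 1), two-sided, 0 of the 10 passed a Benjamini-Hochberg adjusted p of 0.05, beside 0% of all genes tested. At an unadjusted p under 0.05 there was 1 of 10, XBP1, beside 12.2% of all genes tested in limma. In edgeR's quasi-likelihood test on reads recovered from the FPKM values, 0 of 10 passed the adjusted threshold, beside 0.0438% of genes, and 1 of 10 had an unadjusted p under 0.05, beside 13.4%. In DESeq2 it was 0 of 10 beside 0.965%. On the log2 scale 4 of the 10 were higher and 6 lower in Y483E, with a median difference of -0.016, while 52.8% of all genes tested were higher, with a median of 0.0070.

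**Figure D1:**
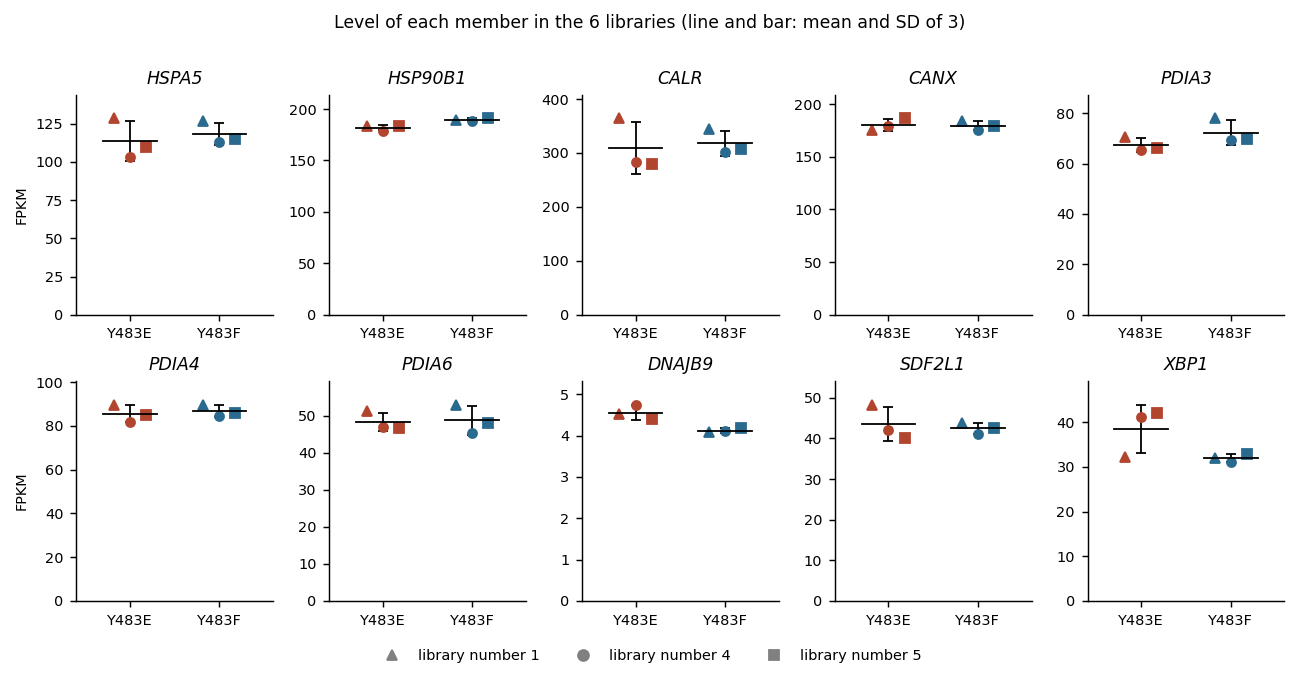
FPKM (vertical axes, from 0) of each of the 10 genes in the 3 Y483E libraries (red, left) and the 3 Y483F libraries (blue, right), with the library number as the symbol and the mean and SD as line and bar. XBP1 shows 2 Y483E libraries at 41.2 and 42.0 FPKM above the other 4, while HSPA5 and CALR are highest in the library numbered 1 of each line.

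HSPA5 (ENSG00000044574, chr9:125234853-125241330, minus strand), the central ER chaperone and the usual marker of ER stress, ranked 294 of 19951 protein-coding genes by mean FPKM. It had 128.5, 103.4 and 109.6 FPKM in Y483E replicates 1, 2 and 3, against 126.8, 113.1 and 115.3 FPKM in Y483F replicates 1, 2 and 3. The groups overlapped, and the highest library of each line was the one numbered 1. The means were 114 ± 13.1 FPKM in Y483E and 118 ± 7.34 FPKM in Y483F (SD, n = 3 each). The limma log2 difference was -0.060 ± 0.087 (SE), with an adjusted p of 0.809. Its 95% interval, -0.26 to 0.14, holds changes of either sign.

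HSP90B1 (ENSG00000166598, chr12:103930107-103953645, plus strand), which folds integrins and Toll-like receptors among its clients, was the steadiest gene within each line. Its levels were 183.3, 178.9 and 183.8 FPKM in Y483E, against 189.3, 188.5 and 191.0 FPKM in Y483F. All Y483E libraries were below all Y483F libraries, a pattern shown by 7.37% of the genes tested. The log2 difference was -0.059 ± 0.038 (SE; limma adjusted p = 0.563). An exact two-sided permutation test gave p = 0.1, the smallest that 3 libraries against 3 allow.

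Of the lectin chaperones, CALR (ENSG00000179218, chr19:12938578-12944489, plus strand), a soluble calcium-binding protein, had the highest level of all 10 genes. It had 364.2, 282.9 and 279.1 FPKM in Y483E replicates 1, 2 and 3, against 344.5, 302.3 and 307.8 FPKM in Y483F replicates 1, 2 and 3. Libraries numbered 1 were highest in both lines. The other Y483E libraries were below every Y483F library. Over all 6 libraries the log2 difference was -0.052 ± 0.11 (SE; limma adjusted p = 0.876). With libraries 4 and 5 alone it was -0.12, and the adjusted p was 0.0852 in limma and 0.0462 in edgeR, where 7.98% of genes were called lower in Y483E. Between the libraries numbered 1 it was 0.080, and the change in the difference with number was not past the threshold (edgeR adjusted p = 0.155).

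CANX (ENSG00000127022, chr5:179678628-179730925, plus strand), the membrane-bound counterpart of CALR, had 175.8, 179.2 and 186.6 FPKM in Y483E, against 184.5, 175.5 and 179.4 FPKM in Y483F. The groups overlapped, with a log2 difference of 0.0056 ± 0.044 (SE; limma adjusted p = 0.971) and a 95% interval of -0.098 to 0.11. The ratio of CALR to CANX, both per length, was 2.07 in Y483E and 1.87 in Y483F in the libraries numbered 1. In the other libraries it was 1.58 and 1.496 in Y483E, against 1.72 and 1.72 in Y483F.

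The disulfide isomerases had lower levels. PDIA4 (ERp72; ENSG00000155660, chr7:149003062-149028641, minus strand) averaged 85.6 ± 3.91 FPKM in Y483E and 86.7 ± 2.67 FPKM in Y483F. PDIA3 (ERp57; ENSG00000167004, chr15:43746392-43773279, plus strand), which works with the lectin chaperones on glycoproteins, had 70.5, 65.4 and 66.3 FPKM in Y483E, against 77.9, 69.3 and 69.6 FPKM in Y483F. Only Y483E replicate 1 was above any Y483F library. Its log2 difference of -0.097 ± 0.059 (SE; limma adjusted p = 0.534) was the furthest below 0 among the 10 genes. A processed pseudogene of PDIA3, PDIA3P1, was listed at a mean of 5.12 FPKM, so reads of near-identical sequence could have been split between them. PDIA6 (P5; ENSG00000143870, chr2:10783391-10837977, minus strand), which also acts on the IRE1 sensor, averaged 48.3 ± 2.55 FPKM in Y483E and 48.8 ± 3.86 FPKM in Y483F. The limma adjusted p was 0.896 for PDIA4 and 0.957 for PDIA6, and in both the groups overlapped.

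Both cochaperones of HSPA5 in the group were expressed at unequal levels. SDF2L1 (ENSG00000128228, chr22:21642261-21644298, plus strand), which binds ER J-proteins, had 48.3, 42.1 and 40.1 FPKM in Y483E, against 43.8, 41.0 and 42.6 FPKM in Y483F. The groups overlapped, and the log2 difference was 0.031 ± 0.071 (SE; limma adjusted p = 0.886). DNAJB9 (ERdj4; ENSG00000128590, chr7:108569568-108574850, plus strand), a J-protein that brings HSPA5 to IRE1, was the scarcest of the 10, at rank 7501 of the protein-coding genes.

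DNAJB9 had 4.51, 4.75 and 4.40 FPKM in Y483E, against 4.08, 4.11 and 4.17 FPKM in Y483F, from 229, 314 and 230 reads in Y483E and 198, 210 and 241 reads in Y483F. Every Y483E library was above every Y483F library, as for 9.72% of the genes tested. The log2 difference was 0.12 ± 0.053 (SE; limma adjusted p = 0.433). The exact two-sided permutation test again gave 0.1. On reads, edgeR gave 0.14 ± 0.10 (SE) with an adjusted p of 0.596. DNAJB9 lies over THAP5 and PNPLA8, both on the opposite strand, at means of 8.49 and 4.19 FPKM. HSP90B1 lies over C12orf73, also on the opposite strand, at a mean of 7.59 FPKM. The labels do not settle whether the libraries were stranded, so reads of these overlapping genes may have been mixed.

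XBP1 (ENSG00000100219, chr22:28794555-28800597, minus strand), the transcription factor that raises ER chaperones and degradation factors once spliced, ranked 1251 of the protein-coding genes. It had 32.3, 41.2 and 42.0 FPKM in Y483E replicates 1, 2 and 3, against 32.0, 31.1 and 32.9 FPKM in Y483F replicates 1, 2 and 3. These came from 1749, 2912 and 2346 reads in Y483E and 1658, 1696 and 2026 reads in Y483F. Y483E replicate 1 lay among the Y483F libraries, and the other Y483E libraries stood above all 4. The means were 38.5 ± 5.41 FPKM in Y483E and 32.0 ± 0.875 FPKM in Y483F (SD, n = 3 each), and the spread within Y483E was larger than that within Y483F.

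Over all libraries the log2 difference of XBP1 was 0.25 ± 0.097 (SE), with a 95% interval of 0.023 to 0.48. The unadjusted p was 0.0353 and the adjusted p 0.370 in limma. The adjusted p was 0.238 in edgeR (0.26) and 0.120 in DESeq2 (0.27). In the authors' deposited table, which lists 1652 genes with an unadjusted p of up to 0.04999, XBP1 was the 1 gene of the 10 present, with a log2 fold change of 0.27, an unadjusted p of 0.00303 and an adjusted p of 0.122. The exact permutation test of the 3 against 3 libraries gave p = 0.2.

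With the libraries numbered 4 and 5 alone, the log2 difference of XBP1 was 0.37 ± 0.039 (SE) with an adjusted p of 0.0327 in limma. There it was the 1 gene of the 10 called, beside 5.45% of all genes called and 2.57% called higher in Y483E. In edgeR it was 0.37 ± 0.043 (SE) with an adjusted p of 7.35e-05. There 2 of the 10 were called, XBP1 and CALR, beside 15% of all genes called and 7.07% called higher. Between the libraries numbered 1 it was 0.014, with no replicate. Leaving out Y483E replicate 1 alone gave 0.38 in edgeR, with an adjusted p of 0.022, a call made for 0.739% of genes in that direction, and 0.37 in limma, with an adjusted p of 0.0871. The difference between the lines was larger in libraries 4 and 5 than in libraries 1 by 0.36 ± 0.068 (SE) in limma, with an adjusted p of 0.209. It was larger by 0.36 ± 0.079 (SE) in edgeR, with an adjusted p of 0.0242, beside 2.01% of genes called and 0.689% called in that direction. Leaving out Y483F replicate 2 took that adjusted p to 0.196. In this test the lone library numbered 1 of each line is assumed to vary like the others. It was past the threshold for 1 of the 10 genes, XBP1, in edgeR and for 0 of 10 in limma, where 0.0623% of genes were called and 15.9% had an unadjusted p under 0.05. Array weights in limma (0.29, adjusted p = 0.0298) and edgeR with no filter (0.28, adjusted p = 0.0017) also called XBP1 over all 6 libraries, beside 7.32% and 0.852% of genes called higher.

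**Figure D2:**
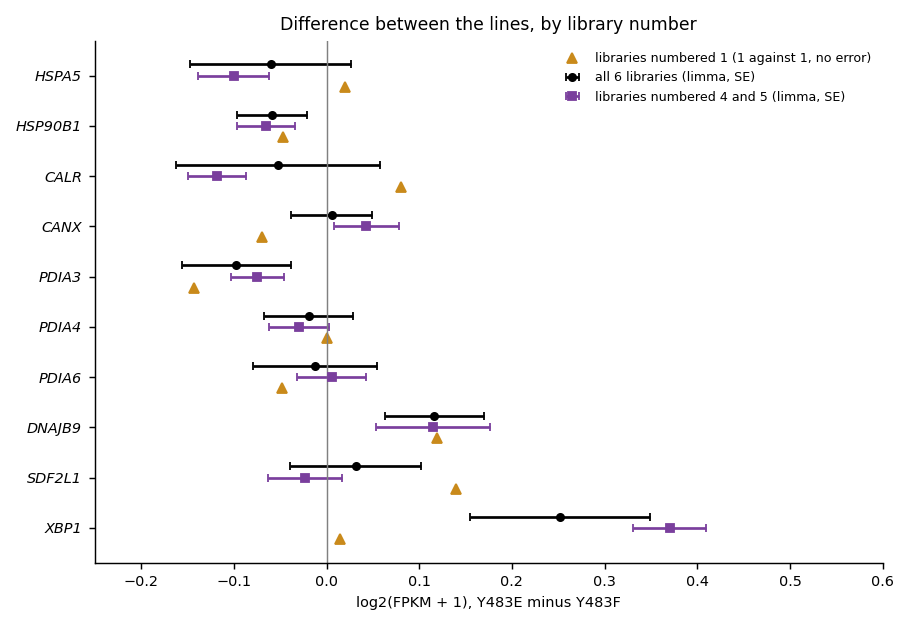
Difference in log2(FPKM + 1), Y483E minus Y483F, for each of the 10 genes, from all 6 libraries (black, limma with SE), from libraries numbered 4 and 5 (purple, limma with SE) and between the libraries numbered 1 (orange triangles, 1 against 1 with no error). XBP1 is at 0.37 in libraries 4 and 5 and at 0.014 between the libraries 1, and HSPA5 and CALR lie below 0 in libraries 4 and 5 and above 0 between the libraries 1.

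XBP1 did not follow HSPA5 or CALR from library to library. HSPA5 and XBP1 had a Pearson r of -0.74 over the 6 libraries on the log2 scale, and CALR and XBP1 had -0.73. These are descriptions of 6 points that share depth and library number. As a percentage of HSPA5, both per length, XBP1 stood at 25.1%, 39.9% and 38.4% in Y483E replicates 1, 2 and 3, against 25.2%, 27.5% and 28.5% in Y483F replicates 1, 2 and 3. The libraries numbered 1 of both lines had nearly the same percentage, and Y483E replicates 2 and 3 had the highest. The 9 chaperones together summed to 1116, 986 and 1002 FPKM in Y483E, against 1114, 1024 and 1044 FPKM in Y483F. Their summed FPKM was thus lower in Y483E within libraries 4 and 5 and almost equal in libraries 1. As a share of all FPKM they made up 0.421%, 0.368% and 0.388% in Y483E, against 0.420%, 0.377% and 0.384% in Y483F. That share was lower in Y483E in the library numbered 4 but not in the one numbered 5. The median log2 difference of the 9 was -0.019.

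**Figure D3:**
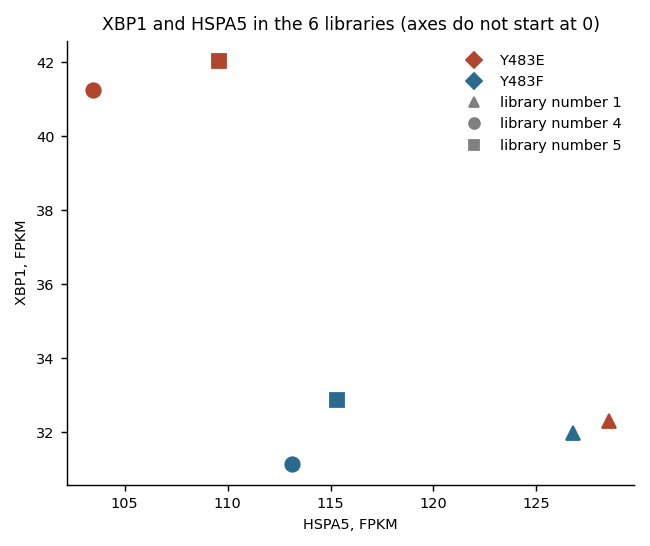
XBP1 (vertical axis, FPKM) against HSPA5 (horizontal axis, FPKM) in each library, red for Y483E and blue for Y483F, with the symbol giving the library number; the axes do not start at 0. Y483E replicates 2 and 3 sit at the upper left, with XBP1 at 41.2 and 42.0 FPKM and HSPA5 at 103.4 and 109.6 FPKM, and both libraries numbered 1 sit at the lower right.

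Several chaperones were highest in the libraries numbered 1 of both lines. In 6 of the 10 genes, HSPA5, CALR, PDIA3, PDIA4, PDIA6 and SDF2L1, both libraries numbered 1 were above all 4 others, a pattern found for 15.9% of the genes tested. With the line as a covariate, CALR was higher in libraries numbered 1 than in 4 and 5 by 0.27 ± 0.053 (SE) in limma, with an adjusted p of 0.119. The edgeR value was 0.26 ± 0.051 (SE), with an adjusted p of 0.0363, beside 0.491% of genes called higher. HSPA5 was higher by 0.21 in limma (adjusted p = 0.121) and did not pass in edgeR either (adjusted p = 0.0588). HSP90B1, CANX and DNAJB9 had differences with number of 0.0061, -0.000425 and -0.017.

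**Figure D4:**
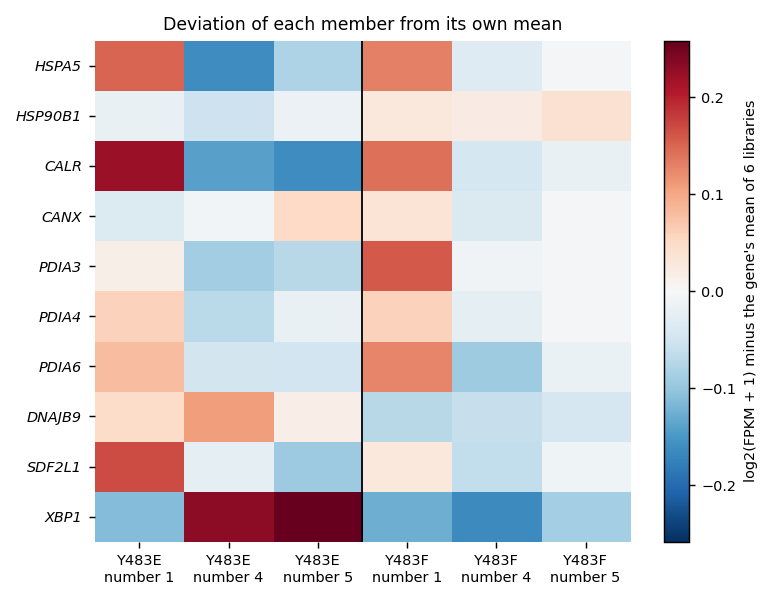
Deviation of log2(FPKM + 1) from the gene's mean over the 6 libraries, for the 10 genes (rows) and the libraries (columns, Y483E left of the line and Y483F right), red above and blue below the mean. The column numbered 1 of each line is red for HSPA5, CALR, PDIA3, PDIA4, PDIA6 and SDF2L1, and the XBP1 row is red in Y483E numbers 4 and 5 alone.

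Among the 4710 genes averaging 10 FPKM or more, those most like HSPA5 over the 6 libraries included LYAR, ELAC2, CDK12 and EIF4G1, with Pearson r between 0.9885 and 0.9927. The highest library of each of these 4 was one numbered 1. ELAC2, for example, had 36.3 FPKM in Y483E number 1 and 35.6 FPKM in Y483F number 1, and averaged 31.3 FPKM in Y483E libraries 4 and 5 and 32.8 FPKM in Y483F libraries 4 and 5. In all, 190 genes had an r over 0.9 with HSPA5. The closest to XBP1 were LONP1, FHL1, TBP, MAP4 and RPS3, with r between 0.9958 and 0.9976, and 234 genes had an r over 0.9. LONP1, a mitochondrial protease, averaged 60.0 FPKM in Y483E libraries 4 and 5, against 50.7 FPKM in Y483F libraries 4 and 5, and had 51.3 FPKM in Y483E number 1 and 50.4 FPKM in Y483F number 1. With 6 libraries, high correlations were common, and none of these likenesses was tested.

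The rest of the ER system was compared through 7 lists of other genes. Of their 138 genes, 134 were tested, and ERN2, CREB3L1, CALR3 and ERP27 were below the filter. Over all 6 libraries, 90 of the 134 were higher and 44 lower in Y483E (median log2 difference 0.032), and 0 passed in limma or edgeR. In other fits of all 6 libraries some of these genes, or of the ATF4 and CHOP arm, passed. Over the 8 lists together there were 3 in DESeq2 (UBE2G2, CHAC1 and DDIT4), 26 in limma with array weights, 8 in edgeR with no filter and 3 in edgeR with library number as a term. Beside these, DESeq2 called 126 of all 13057 genes (0.965%) and array weights 1888 of 12833. With no filter edgeR called 671 of 31211 genes, and with library number as a term 169 genes. Of the 134, 8 were higher and 4 lower at an unadjusted p under 0.05 in limma. With libraries 4 and 5 alone, edgeR called 18 of 134 higher and 7 lower, beside 7.07% and 7.98% of the 16308 genes in that fit. Of the 12587 genes in it that passed the FPKM filter like the 134, it called 1103 higher and 1153 lower. The same shares stand beside the calls in libraries 4 and 5 for each list below. None of the 134 passed the edgeR test of a change in the difference with library number.

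Among 11 tested sensors and transducers of the response, 8 were higher and 3 lower, and the median log2 difference was 0.094. In libraries 4 and 5 edgeR called 4 higher (ATF6, MBTPS1, MBTPS2 and CREB3L2) and 2 lower (ATF6B and NFYA), beside 7.07% and 7.98% of all genes. MBTPS1 and MBTPS2 encode the Golgi proteases that release ATF6. ATF6 itself averaged 7.69 ± 0.463 FPKM in Y483E and 7.14 ± 0.457 FPKM in Y483F, and its log2 difference in libraries 4 and 5 was 0.20 (edgeR adjusted p = 0.0252). ATF6B, its paralog, averaged 23.7 ± 1.17 FPKM in Y483E and 25.5 ± 1.03 FPKM in Y483F, with -0.18 in libraries 4 and 5 (edgeR adjusted p = 0.0142). ERN1, which encodes IRE1, was near the filter at 1.37 ± 0.160 FPKM in Y483E and 1.27 ± 0.128 FPKM in Y483F. NFYC, a subunit of the CCAAT-binding factor NF-Y, averaged 10.8 ± 0.422 FPKM in Y483E and 9.92 ± 0.120 FPKM in Y483F, with a limma adjusted p of 0.408. CREB3, an ER-tethered factor, had a limma adjusted p of 0.697.

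Of 25 other ER chaperones tested, 16 had higher and 9 lower values in Y483E (median 0.042). The most abundant were the glucosidase II subunits. GANAB averaged 109 ± 2.05 FPKM in Y483E and 104 ± 6.75 FPKM in Y483F, and PRKCSH averaged 77.5 ± 0.909 FPKM in Y483E and 75.2 ± 1.14 FPKM in Y483F. In libraries 4 and 5 edgeR called DNAJC1 and UGGT1, the folding sensor of glycoproteins, higher, and CRELD1 and MANF, a cofactor of HSPA5, lower. MANF had 25.8, 21.4 and 22.2 FPKM in Y483E, against 25.9, 26.1 and 25.2 FPKM in Y483F, with a log2 difference of -0.24 in libraries 4 and 5 (edgeR adjusted p = 0.0112). HYOU1, an exchange factor of HSPA5, averaged 24.2 ± 0.910 FPKM in Y483E and 24.6 ± 0.517 FPKM in Y483F, with a limma adjusted p of 0.867.

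Of 20 further disulfide isomerases and oxidative folding genes, 12 had higher and 8 lower values in Y483E (median 0.032). P4HB (PDI), the best known isomerase, averaged 92.1 ± 1.88 FPKM in Y483E and 89.2 ± 3.22 FPKM in Y483F, and PRDX4, the ER peroxiredoxin, 97.9 ± 1.44 FPKM in Y483E and 96.5 ± 8.14 FPKM in Y483F. The limma adjusted p was 0.699 for P4HB and 0.901 for PRDX4. VKORC1 and TXNDC12 had the smallest unadjusted p-values of the list, with log2 differences of -0.27 and 0.20 and limma adjusted p of 0.356 and 0.400. In libraries 4 and 5 edgeR called TXNDC12 and ERP29 higher and QSOX2 lower.

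ER-associated degradation, which removes misfolded proteins, had 11 of 23 genes higher and 12 lower in Y483E (median -0.0064). HERPUD1, a scaffold of the degradation complex and a textbook target of the response, had 8.16, 9.09 and 10.01 FPKM in Y483E, against 8.13, 7.69 and 7.48 FPKM in Y483F. As with XBP1, the libraries numbered 1 were alike and the other Y483E libraries were above every Y483F library. Its log2 difference in libraries 4 and 5 was 0.33 (edgeR adjusted p = 0.00478), and all 6 libraries gave a limma adjusted p of 0.363. In libraries 4 and 5 edgeR also called UBE2J1 and RNF5 higher and UBE2G2 lower. UBE2G2 had 38.8, 36.0 and 34.9 FPKM in Y483E, against 42.5, 44.8 and 43.2 FPKM in Y483F. The groups did not overlap, as for 7.37% of the genes tested in that direction. Over all 6 libraries its adjusted p was 0.257 in limma and 0.125 in edgeR, and UBE2G2 passed in DESeq2 (log2 difference -0.25, adjusted p = 0.00643) and in limma with array weights (-0.26, adjusted p = 0.016). Those fits called 0.965% of all genes and 1888 of 12833 genes. RNF5, like the translocon gene SRP9, has close pseudogene copies, which makes its level less certain. VCP, the extraction ATPase, averaged 90.3 ± 5.50 FPKM in Y483E and 88.9 ± 3.76 FPKM in Y483F.

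Entry, glycosylation and exit genes were for the most part slightly higher in Y483E, and 0 passed over all 6 libraries in limma with equal weights or in edgeR with its filter. Of 23 translocon and signal peptidase genes, 18 were higher, with a median of 0.026, and edgeR called SSR2 and SRP14 higher in libraries 4 and 5. SRP9 averaged 298 ± 8.64 FPKM in Y483E and 295 ± 21.7 FPKM in Y483F, and SEC11C had a limma adjusted p of 0.365. Of 12 oligosaccharyltransferase genes, 7 were higher, with a median of 0.011. In edgeR DDOST was called higher and KRTCAP2, at 1.75 ± 0.327 FPKM in Y483E and 2.79 ± 0.758 FPKM in Y483F, lower in libraries 4 and 5. DAD1, the most abundant of them, averaged 137 ± 2.10 FPKM in Y483E and 142 ± 7.38 FPKM in Y483F. Of 20 genes of ER exit and retrieval, 18 were higher, with a median of 0.047, and SEC23A, LMAN1 and the KDEL receptor KDELR3 were called higher in libraries 4 and 5. KDELR1, which returns chaperones such as HSPA5 to the ER, averaged 104 ± 4.48 FPKM in Y483E and 100.1 ± 4.71 FPKM in Y483F. TMED9, a cargo receptor, averaged 75.9 ± 6.12 FPKM in Y483E and 73.5 ± 2.42 FPKM in Y483F.

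The ATF4 and CHOP arm of the response, which runs through PERK, had a median of 0.19 over 12 tested genes, 11 of them higher in Y483E. In edgeR on libraries 4 and 5, 8 of 13 genes of this arm were called higher and 0 lower, beside 7.07% and 7.98% of all genes. CHAC1 had 3.83, 8.11 and 7.70 FPKM in Y483E, against 3.63, 3.08 and 3.32 FPKM in Y483F, and ATF4 had 269.6, 322.5 and 334.8 FPKM in Y483E, against 283, 265 and 272 FPKM in Y483F. The same Y483E libraries were high as for XBP1. By median log2 difference in libraries 4 and 5, the arm stood at 0.29 and the 10 ER genes at -0.026, beside 0.015 for all genes tested.

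**Figure D5:**
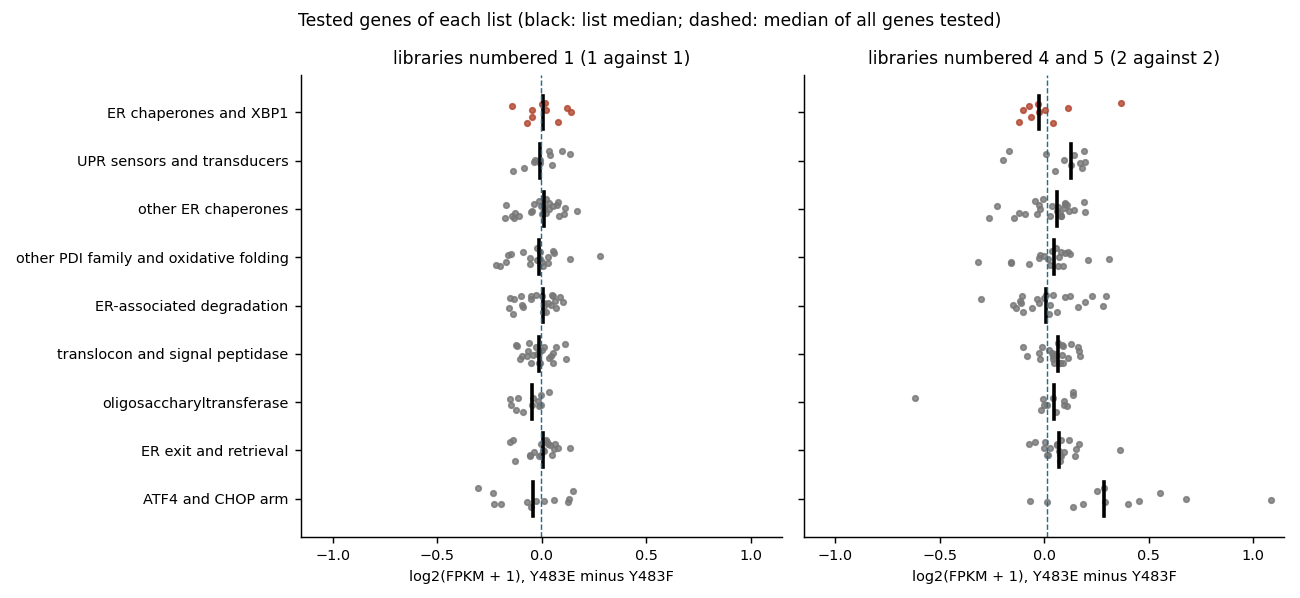
Difference in log2(FPKM + 1), Y483E minus Y483F, of each tested gene in the 10 ER genes (red) and the 8 other lists (grey), between the libraries numbered 1 (left) and in libraries 4 and 5 (right), with list medians in black and the median of all genes tested dashed. At right the ATF4 and CHOP arm has a median of 0.29, while the chaperones lie near 0 and XBP1 stands apart at 0.37.

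The presence of an ERSE did not go with a common direction. The 6 genes with the element differed by -0.060 (HSPA5), -0.059 (HSP90B1), -0.052 (CALR), 0.0056 (CANX), -0.012 (PDIA6) and 0.25 (XBP1) on the log2 scale, and XBP1 had the furthest value from 0. Of the 19 other genes with the element, 8 were tested, of which 3 had higher and 5 lower values in Y483E (median -0.029), over a range of -0.069 to 0.17. None passed in limma over all 6 libraries. In libraries 4 and 5, edgeR called 1 of these 8, SERP1, a stabiliser of newly made membrane proteins, higher by 0.24 (adjusted p = 0.00263).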

How the data were processed

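Poly-A selected RNA of 3 Y483E and 3 Y483F libraries was sequenced. The submitters' processing notes name featureCounts 1.5.0-p3, HISAT2 2.0.5, DESeq, DESeq2 and StringTie 1.3.3b. Their roles and the genome build are not given in the sources used here. All 58735 gene positions in the authors' table equalled those of GENCODE 29 on GRCh38. The authors deposited FPKM values for all genes and, for 1652 genes, raw counts, a signal (count divided by a size factor), log2 fold changes and p-values. The deposited counts of those genes gave the library totals, from which FPKM of all genes returned whole reads for 100% of values within 0.01 of a read.

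The main test was limma 3.58.1 with a trend on log2(FPKM + 1) for genes averaging 1 FPKM or more, two-sided, with Benjamini-Hochberg adjusted p under 0.05 over all genes. On the log2(FPKM + 1) scale, differences of low genes are understated. Alternatives were edgeR 4.0.16 (quasi-likelihood) and DESeq2 1.42.0 on recovered reads, other pseudocounts, filters and scalings, array weights, no trend, the replicate block, a term for library number, libraries 4 and 5 alone, and leaving out each library. The main limma, edgeR and DESeq2 comparisons and the edgeR interaction were tested on simulated data, and the outcome is not given here. The test of number 1 against 4 and 5, and the interaction with single libraries left out, were added after seeing the data.

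The 10 genes and the lists were chosen with earlier results of these data known. Named genes were the 10, the 2 most abundant and the 2 with the smallest unadjusted p of each list, and the 5 genes most like HSPA5 and XBP1. Others (ATF6, ERN1, MANF, HYOU1, HERPUD1, SERP1 and the genes called in libraries 4 and 5) were chosen after their values were seen. A few genes that these rules name are not reported here. Protein sequence features, planned, are not analysed here. Depth, 17204498 to 23284592 reads, limits genes with few reads.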

Additional observations from a re-analysis of the deposited data

Results flagged for a closer look

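Within the ER genes, XBP1 was picked out because its difference between the lines changed with library number in edgeR: Y483E minus Y483F was larger in libraries 4 and 5 than between the libraries 1 by 0.36 on the log2 scale (adjusted p = 0.0242). In limma the adjusted p of this change was 0.209. In the ATF4 and CHOP arm the same edgeR test picked out ATF4 by 0.37, TRIB3 by 0.85, CHAC1 by 1.23, SESN2 by 0.46, DDIT4 by 0.57 and VLDLR by 1.18. That is 6 of 13 genes of the arm, beside 2.01% of all genes in either direction. Limma called none of the 6, with adjusted p between 0.0784 for TRIB3 and 0.251 for VLDLR. The lone library numbered 1 of each line was assumed to vary like the others.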

How the results depend on the processing

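None of the 10 genes passed over all 6 libraries in limma, edgeR or DESeq2, and this count rose in a few of the settings tried. XBP1 alone passed with array weights (1 gene; log2 difference 0.29, adjusted p = 0.0298), in edgeR with no filter (1 gene; 0.28, adjusted p = 0.0017), in limma on libraries 4 and 5 (1 gene) and in edgeR without Y483E replicate 1 (1 gene; in limma without it 0.37, adjusted p = 0.0871, not passed), and with CALR in edgeR on libraries 4 and 5 (2 genes). XBP1 was higher in Y483E in all 29 alternatives, by 0.19 to 0.38, with adjusted p between 7.35e-05 and 0.811. HSP90B1, PDIA3 and DNAJB9 also kept their sign, in 29, 29 and 28 alternatives.

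Over all genes, limma called 0, and the count was 1888 with array weights, 7 in edgeR, 14 without TMM, 671 with no filter, 126 in DESeq2, 169 with library number as a term in edgeR, and 705 in limma and 2454 in edgeR on libraries 4 and 5. Leaving out single libraries gave 1 to 1000 in edgeR, with 174 without Y483E replicate 1 and 1000 without Y483F replicate 1. Over all 6 libraries the groups did not overlap for 2 of the 10 genes, beside 9.72% of genes tested higher and 7.37% lower in Y483E. This count became 1 at a filter of 5 FPKM, which leaves out DNAJB9. It was 6 in limma and 7 in edgeR on libraries 4 and 5, and 2 to 7 leaving out single libraries. Groups of fewer libraries separate more easily, and the share of all genes was not counted in those settings. The interaction with library number was called for 8 genes in limma and 347 in edgeR. For XBP1 it was 0.36 in limma and 0.365 in edgeR, and 0.317 to 0.397 without single libraries. The number 1 against 4 and 5 comparison called 0 of the 10 in limma, 1 in edgeR, 1 without TMM, and 0 to 3 without single libraries. Of all genes, 0% were called higher in libraries 1 in limma and 0.491% in edgeR. The share of all genes is not given for the other settings of this comparison, so their counts cannot be set against it.

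Differences near 0 changed sign. CANX was -0.00184 in edgeR, -0.00165 with the replicate block, -0.00156 with library number as a term, and -0.0202 to 0.0244 without single libraries. SDF2L1 was -0.00847 with array weights, -0.023 in limma and -0.0264 in edgeR on libraries 4 and 5, and -0.0481 to 0.0876 without single libraries. PDIA6 was 0.00573 in limma and 0.000768 in edgeR on libraries 4 and 5, and -0.0617 to 0.0481 without single libraries. CALR ranged from -0.183 to 0.022, HSPA5 from -0.156 to 0.00501 and PDIA4 from -0.0584 to 0.0102 without single libraries. The cause was not tested.

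The labels do not say whether same-numbered libraries of the lines belong together. Their deviations from the mean of their own line correlated at 0.0562, 0.139 and -0.0949. Both libraries numbered 1 were nevertheless above all 4 others for 15.9% of the genes tested. Whether the numbers mark a shared batch was not tested. With the replicate block, limma called 0 genes and edgeR 6, none of the 10, and XBP1 was 0.251 in limma.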
